A study of Mus musculus with 12 samples.

Results

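The 10 genes described here encode the PGC1 family of transcriptional coactivators and the factors that work with it in mitochondrial biogenesis. They are *Ppargc1a*, *Ppargc1b*, *Pprc1* and *Lpin1* (coactivators), *Esrra*, *Esrrg* and *Hnf4a* (nuclear receptors), *Nrf1* and *Gabpa* (nuclear respiratory factors) and *Tfam* (a factor of the mitochondrial DNA). They were chosen by name, with earlier results of these data known, and each matched 1 of the 48795 rows of the deposited liver table. All 10 had enough counts to be among the 13812 genes tested.

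PGC1 coactivators do not bind DNA themselves. They dock on nuclear receptors such as ERRα, ERRγ, HNF4A and PPARα, and on the nuclear respiratory factors, and recruit enzymes that open chromatin. The nuclear respiratory factors in turn drive nuclear genes of the respiratory chain as well as *Tfam*, whose product packages and transcribes the mitochondrial genome. In the liver PGC1α is best known for the response to fasting, when glucagon acting through CREB raises its transcription and it favours gluconeogenesis and fatty acid oxidation.

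Neurotensin (NTS) is a gut and brain peptide that promotes fat absorption, and the study asked how its loss affects energy metabolism in the liver. Liver RNA was sequenced from 12 female mice, 3 in each of 4 groups: NTS WT (Nts+/+) fed ad libitum (mice 254, 257 and 323), NTS WT fasted for 22 h (265, 282 and 322), NTS KO (Nts-/-) fed (277, 303 and 319) and NTS KO fasted for 22 h (284, 290 and 295). All were 4 months old, on normal chow and bred from Nts+/- parents, and carried the same batch label. The study used littermates matched for age and sex, and which of these mice shared a litter is not given. The knockout was of the whole body, so that a difference in liver need not arise there, and each library came from a separate mouse.

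Total expected counts lay between 21999656 and 45273081 per mouse, and genes of the mitochondrial DNA took between 2.24% and 5.81% of them. Hepatocyte markers were high in every liver, with 8 markers summing to between 115128 and 155467 CPM, a unit in which each library's counts are scaled to the same total. *Nts* itself had counts only in libraries labelled NTS KO, where the label names a loss of the gene. It had 0 counts in all 6 libraries labelled NTS WT, where 3 counts would correspond to between 0.0833 and 0.136 CPM, but 46, 40 and 15 counts in the fed and 12, 4 and 18 in the fasted libraries labelled NTS KO. Floors cover counting error only. The paper places NTS in the central nervous system and in cells of the small intestine. Why *Nts* counts came only under the NTS KO label, and whether the labels hold, was not tested. NTS WT and NTS KO livers are therefore the libraries labelled so, and every genotype direction is that of the labels. Levels are given as CPM corrected for differences in library composition (TMM-normalized), and *p* values of edgeR were adjusted over all tested genes.

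With fasting, part of this network was called higher and none of it was called lower. Over both genotypes, *Esrrg*, *Ppargc1a*, *Esrra*, *Pprc1* and *Tfam* rose in edgeR's quasi-likelihood test at an adjusted *p* under 0.05, by between 1.25-fold and 2.23-fold. These are 5 of 10 genes, whereas 16% of all tested genes rose and 16.8% fell. Because the 10 genes were chosen with earlier results of these data known, comparisons with all genes are a description and no independent test. *Lpin1* had the largest difference, 2.41-fold, but missed the threshold. *Hnf4a*, *Nrf1*, *Gabpa* and *Ppargc1b* did not pass either. All 10 fitted differences were above 0 with a median log2 fold change of 0.41, against 49.3% of all genes above 0 and a median of -0.01. Of the 8 hepatocyte markers 5 rose and 1 fell in the same contrast, with a median of 0.47. Their summed level lay between 121447 and 143056 CPM in fed and between 129390 and 155467 CPM in fasted NTS WT livers, which overlapped. In NTS KO livers it lay between 115128 and 130209 CPM in fed and between 133097 and 142031 CPM in fasted mice, without overlap. Their part in the values of the 10 genes was not tested.

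Within a single genotype the 3 mice against 3 gave fewer calls. In NTS WT livers 1 of the 10 genes rose (*Esrrg*) and 0 fell, against 8.91% and 9.19% of all genes. In the livers labelled NTS KO 0 rose and 0 fell, against 7.7% and 9.14%. At an unadjusted *p* under 0.05, edgeR gave 5 of the 10 genes in NTS WT and 3 in NTS KO livers, where it gave 32.5% and 31.7% of all genes, so that the NTS KO count lay at the background. The Wald test of DESeq2 called 1 of the 10 in NTS KO livers. The medians of the log2 fold changes were close, 0.41 in NTS WT and 0.42 in NTS KO.

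**Figure D1:**
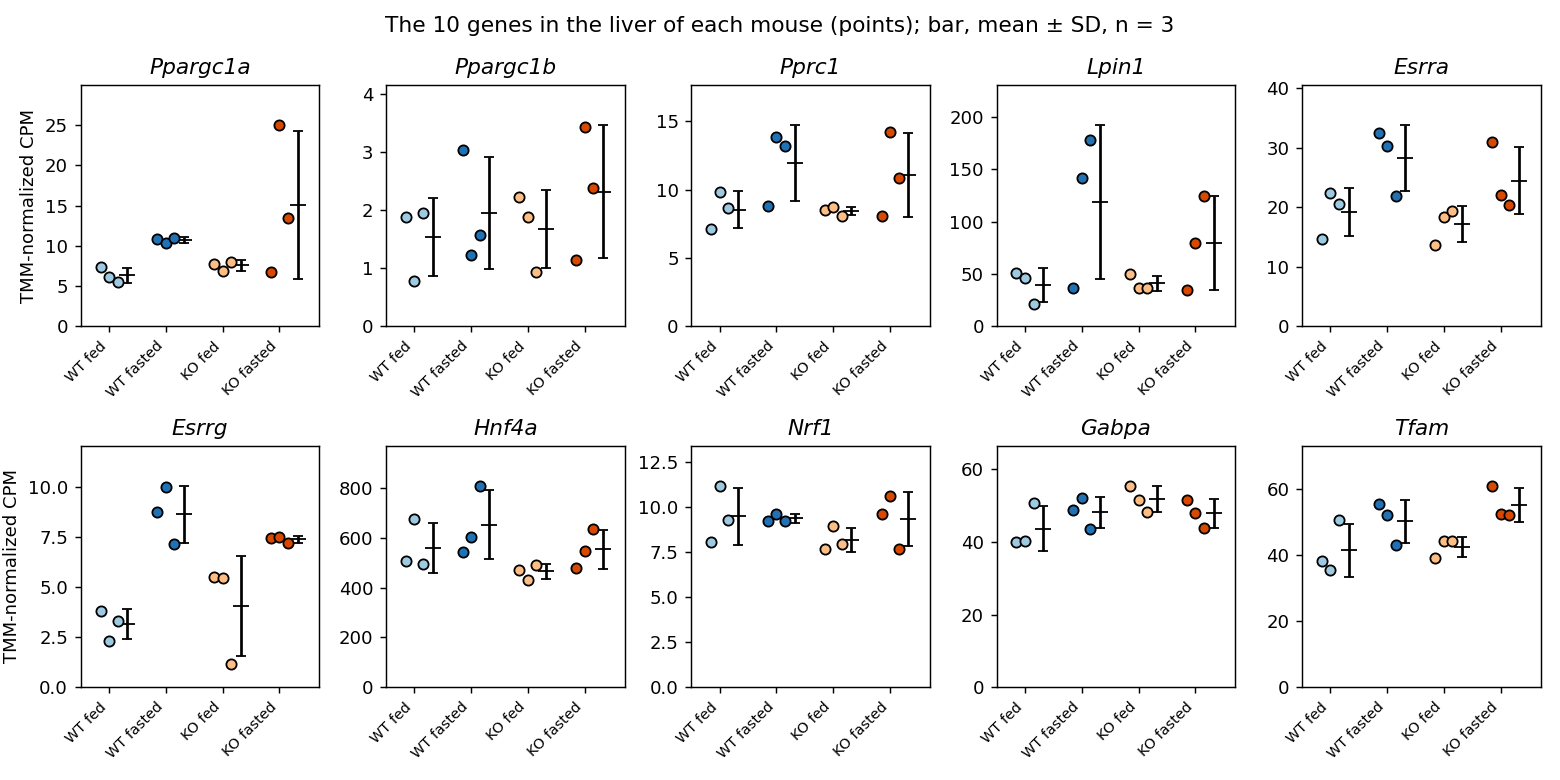
TMM-normalized CPM of the 10 genes (y axis, from 0) in the 4 groups (x axis), with a point per mouse and a bar for the mean ± SD of 3 mice. *Esrrg* is the gene whose 6 fasted livers, from 7.19 to 10.0 CPM, all lie above its 6 fed livers, from 1.17 to 5.53 CPM. The fasted NTS KO livers spread widely in *Ppargc1a*, and the fasted livers of both genotypes do so in *Lpin1*.

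*Ppargc1a* (ENSMUSG00000029167, GRCm38 chromosome 5, 51454250 to 51567726) encodes PGC1α. Its level in NTS WT livers was 7.35, 6.18 and 5.54 TMM-normalized CPM when fed and 10.8, 10.3 and 11.0 when fasted. In the NTS KO livers it was 7.80, 6.84 and 8.06 when fed and 6.78, 25.0 and 13.5 when fasted. The NTS WT groups did not overlap, with 3 fasted livers within a narrow range above all fed ones. The NTS KO groups overlapped, since mouse 284 had less than any fed liver of its genotype while mouse 290 had more than any other liver. Over both genotypes the rise was 1.83-fold (log2 0.87 ± 0.24 SE, edgeR adjusted *p* = 0.0155), and it kept its call under every alternative run, at 0.60 on the log2 scale without mouse 290.

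Within genotypes the log2 difference of *Ppargc1a* was 0.75 in NTS WT (edgeR adjusted *p* = 0.151) and 0.99 in NTS KO livers (adjusted *p* = 0.0649), neither of which passed. In NTS WT it passed without mouse 284 (adjusted *p* = 0.0239), without mouse 290 (0.0319) or with only the 6 mice compared (0.0144). Mice 284 and 290 are NTS KO and not in this contrast, and without either the NTS WT log2 difference was 0.76. The fit shares its estimate of spread over the 4 groups. In NTS KO it passed in DESeq2 (0.0155) and in edgeR without mouse 284 (0.0024), and without mouse 290 the log2 difference was 0.44.

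Fasting signals act on *Ppargc1a* through CREB, whose binding site is the cyclic AMP response element (CRE). The RefSeq promoter window of *Ppargc1a*, 250 bases before to 50 after its annotated start, is shown because it held part of this site. It lies on the minus strand of GRCm38.p6 at chr5:51567676-51567975. Capitals mark the short CRE motif TGACG read on the other strand, from -49 to -45 relative to the start:

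Ppargc1a: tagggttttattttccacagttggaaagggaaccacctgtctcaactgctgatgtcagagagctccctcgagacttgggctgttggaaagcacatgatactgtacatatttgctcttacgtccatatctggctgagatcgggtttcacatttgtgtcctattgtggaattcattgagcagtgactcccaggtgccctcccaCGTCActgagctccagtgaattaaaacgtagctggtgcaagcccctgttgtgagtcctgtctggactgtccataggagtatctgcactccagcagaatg

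TGACG was looked for on both strands and was present in 20.8% of all 32851 windows and in 1 of the 14 windows of these genes. The full CRE, TGACGTCA, which contains it, was present in 1.79% and not in this window. Letters matching a motif are a description of the sequence and not a measurement of binding. A window was listed for 9 of the 10 genes (14 windows, several genes having more than 1 start), the exception being *Ppargc1b*. Of these windows, only those with a match to a motif looked for are printed.

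PGC1β, encoded by *Ppargc1b*, shares the coactivator domains of PGC1α and is linked to lipid synthesis and lipoprotein secretion in the liver. It had the fewest counts of the 10 genes, between 21 and 101 per liver. It had 1.88, 0.77 and 1.95 CPM in fed and 3.04, 1.22 and 1.57 in fasted NTS WT livers, and 2.22, 1.88 and 0.93 in fed and 1.15, 3.42 and 2.39 in fasted NTS KO livers. Fed and fasted livers overlapped in both genotypes. The log2 difference over both was 0.39 (95% interval -0.35 to 1.12, edgeR adjusted *p* = 0.413), an interval that holds both no change and a 2.18-fold rise.

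*Pprc1* (ENSMUSG00000055491, chromosome 19, 46044886 to 46072915) encodes PRC, the PGC1-related coactivator that responds to growth signals. NTS WT livers had 7.09, 9.82 and 8.69 CPM when fed and 8.78, 13.9 and 13.2 when fasted. NTS KO livers had 8.52, 8.72 and 8.10 CPM when fed and 8.11, 14.2 and 10.9 when fasted. In each genotype 1 fasted mouse (265 and 284) lay within the fed range and the other two lay above it. The rise over both genotypes was 1.36-fold (log2 0.44 ± 0.15 SE, edgeR adjusted *p* = 0.0384). The call was lost with upper-quartile normalization (adjusted *p* = 0.0517) and without any one of mice 254, 323, 282, 322, 277, 303, 319, 290 or 295 (adjusted *p* between 0.0555 and 0.104).

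*Lpin1* (ENSMUSG00000020593, chromosome 12, 16535669 to 16589770) encodes lipin 1, a phosphatidate phosphatase of triglyceride synthesis that also acts in the nucleus as a partner of PGC1α and PPARα. Fed NTS WT livers had 50.8, 46.7 and 21.4 CPM and fasted ones 36.7, 142 and 178. Fed NTS KO livers had 49.7, 37.1 and 36.7 CPM and fasted ones 34.5, 79.5 and 125. The fasted livers of each genotype thus split, with mice 265 and 284 at fed levels and the other fasted mice above every fed liver. *Lpin1* had the widest spread of the 10 genes in proportion to its level, with a CV of 72.5% over the 12 mice. Its log2 difference over both genotypes was 1.27 ± 0.44 SE (edgeR adjusted *p* = 0.0552). It passed in DESeq2 (adjusted *p* = 0.0172) and in edgeR without mouse 265 (0.0103) or mouse 284 (0.0294).

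The same 2 fasted mice were low in several of these genes. Mouse 265 had the lowest *Pprc1*, *Lpin1* and *Hnf4a* of the fasted NTS WT livers, and mouse 284 had the lowest *Ppargc1a*, *Ppargc1b*, *Pprc1*, *Lpin1* and *Hnf4a* of the fasted NTS KO livers. Both had the highest *Esrra* and the highest *Tfam* of their group. In *Ppargc1b*, by contrast, mouse 265 was the highest of its group (3.04 CPM), and in *Ppargc1a* it lay between the others. The depth of the libraries of mice 265 and 284 was 23040688 and 23048879 counts, the lowest of each fasted group. Mouse 290 had 23617416 counts and the highest *Ppargc1a*, *Ppargc1b* and *Pprc1* of the fasted NTS KO livers. The part of depth in these values was not tested.

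*Esrra* (ENSMUSG00000024955, chromosome 19, 6910977 to 6921813) encodes ERRα, an orphan nuclear receptor that binds the promoters of respiratory chain and fatty acid oxidation genes and relies on PGC1 coactivators for activity. NTS WT livers had 14.7, 22.3 and 20.6 CPM when fed and 32.5, 30.3 and 22.0 when fasted. NTS KO livers had 13.8, 18.4 and 19.4 CPM when fed and 31.0, 22.1 and 20.4 when fasted. The NTS KO groups did not overlap, while in NTS WT mouse 322 lay just inside the fed range. *Esrra* rose 1.45-fold over both genotypes (log2 0.53 ± 0.15 SE, edgeR adjusted *p* = 0.0144) and kept that call under every alternative run. The difference was close to equal in the genotypes, with a log2 fold change of 0.56 in NTS WT (adjusted *p* = 0.0846) and 0.51 in NTS KO livers (adjusted *p* = 0.113). In NTS WT it passed without mouse 322 (adjusted *p* = 0.0400).

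The promoter window of *Esrra* (minus strand, GRCm38.p6 chr19:6921759-6922058, RefSeq) is shown because it held a match to the core site of NRF1, a nuclear respiratory factor. Capitals mark the NRF1 core GCATGCGC, from -34 to -27:

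Esrra: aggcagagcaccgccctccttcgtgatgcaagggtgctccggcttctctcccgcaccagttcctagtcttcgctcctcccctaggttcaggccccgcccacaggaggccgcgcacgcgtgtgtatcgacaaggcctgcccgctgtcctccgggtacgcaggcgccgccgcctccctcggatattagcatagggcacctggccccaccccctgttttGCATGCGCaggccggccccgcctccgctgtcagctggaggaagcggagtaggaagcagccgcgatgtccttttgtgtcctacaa

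The NRF1 core was present on either strand in 2.71% of all windows and in 1 of the 14 windows of these genes. The ERR element TCAAGGTCA was present in 0.423% of all windows and in none of the 14 windows of these genes. The FoxO site GTAAACA (3.65% of all windows) and the HNF4 element CAAAGTCCA (0.475%) were not in them either.

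*Esrrg* (ENSMUSG00000026610, chromosome 1, 187608791 to 188214885) encodes ERRγ, the close relative of ERRα that in liver is induced by fasting signals and acts on gluconeogenic genes. NTS WT livers had 3.80, 2.32 and 3.33 CPM when fed and 8.78, 10.0 and 7.19 when fasted. NTS KO livers had 5.53, 5.47 and 1.17 CPM when fed and 7.47, 7.53 and 7.20 when fasted. All 6 fasted livers lay above all 6 fed livers, an order that no other gene of the 10 showed and that 8.05% of all tested genes showed in this direction. The fasted NTS KO livers were nearly equal, while the fed ones included mouse 319 with the lowest level of all 12.

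*Esrrg* rose 2.23-fold over both genotypes (log2 1.16 ± 0.29 SE, edgeR adjusted *p* = 0.0105), a call kept under every alternative run. In NTS WT livers it rose 2.75-fold (log2 1.46 ± 0.42 SE, adjusted *p* = 0.0333). That call was lost with no count filter (adjusted *p* = 0.0776) and without any one of mice 254, 257, 323, 265 or 282 (adjusted *p* between 0.0686 and 0.116). In NTS KO livers the log2 difference was 0.85 (adjusted *p* = 0.179). The counts behind *Esrrg* ranged from 29 to 305 per liver.

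*Hnf4a* (ENSMUSG00000017950, chromosome 2, 163506808 to 163572910) encodes the nuclear receptor that maintains hepatocyte identity and through which PGC1α acts on gluconeogenic genes. Fed and fasted livers overlapped in both genotypes. NTS WT livers had 506, 673 and 496 CPM when fed and 544, 605 and 808 when fasted. NTS KO livers had 472, 432 and 492 CPM when fed and 479, 549 and 636 when fasted. The log2 difference over both genotypes was 0.24 (95% interval -0.03 to 0.51, edgeR adjusted *p* = 0.162).

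The nuclear respiratory factors showed no call. *Nrf1* (ENSMUSG00000058440, chromosome 6, 30047988 to 30153458), which binds the promoters of many respiratory genes, had group means of 9.48 ± 1.58 (SD, n = 3) CPM in fed and 9.35 ± 0.235 in fasted NTS WT livers, and 8.16 ± 0.659 in fed and 9.30 ± 1.49 in fasted NTS KO livers. Its log2 difference with fasting was 0.08 (95% interval -0.16 to 0.32, edgeR adjusted *p* = 0.613). *Gabpa* (ENSMUSG00000008976, chromosome 16, 84834925 to 84863779) encodes the DNA-binding subunit of GABP, also called NRF2. It had 43.7 ± 6.15 (SD, n = 3) CPM in fed and 48.1 ± 4.35 in fasted NTS WT livers, and 51.7 ± 3.60 in fed and 47.9 ± 3.91 in fasted NTS KO livers. Its difference was 0.01 on the log2 scale (95% interval -0.18 to 0.20, adjusted *p* = 0.927), the narrowest interval of the 10 genes. The intervals bound any change over both genotypes at 1.25-fold for *Nrf1* and 1.15-fold for *Gabpa*, upwards.

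*Tfam* (ENSMUSG00000003923, chromosome 10, 71225464 to 71238280) encodes mitochondrial transcription factor A. NTS WT livers had 38.2, 35.5 and 50.7 CPM when fed and 55.6, 52.2 and 43.0 when fasted. NTS KO livers had 39.0, 44.2 and 44.2 CPM when fed and 61.0, 52.5 and 52.1 when fasted. The NTS KO groups did not overlap, and the NTS WT groups did. *Tfam* rose 1.25-fold over both genotypes (log2 0.33 ± 0.10 SE, edgeR adjusted *p* = 0.0269), the smallest of the 5 rises. The call was lost without any one of mice 254, 257, 265, 282, 277 or 284 (adjusted *p* between 0.0597 and 0.0673), while without mouse 323 *Tfam* passed in NTS WT (0.0413) and narrowly in NTS KO livers. Mouse 323 is NTS WT and not in the NTS KO contrast.

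The promoter window of *Tfam* (minus strand, GRCm38.p6 chr10:71237995-71238294, RefSeq) is shown because it held a motif match, in a gene on which the nuclear respiratory factors act. Capitals mark the GABP site CCGGAAGT, from -47 to -40:

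Tfam: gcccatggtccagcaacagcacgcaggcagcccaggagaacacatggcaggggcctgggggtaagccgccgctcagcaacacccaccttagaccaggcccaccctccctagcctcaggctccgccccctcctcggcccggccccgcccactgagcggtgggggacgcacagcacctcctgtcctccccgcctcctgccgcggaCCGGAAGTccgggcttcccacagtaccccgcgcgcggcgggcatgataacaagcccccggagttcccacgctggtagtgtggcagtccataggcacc

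This site was present on either strand in 3.89% of all windows, and in 1 of the 14 windows of these genes.

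Counting order rather than size, 2 of the 10 genes had all fasted livers above all fed ones in NTS WT (*Ppargc1a* and *Esrrg*), as had 18.1% of all tested genes. In NTS KO livers there were 3 (*Esrra*, *Esrrg* and *Tfam*), against 17.1% of all tested genes. None of the 10 had all fasted livers below. These shares lay near those of genes at large and are no result about the 10 genes.

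**Figure D2:**
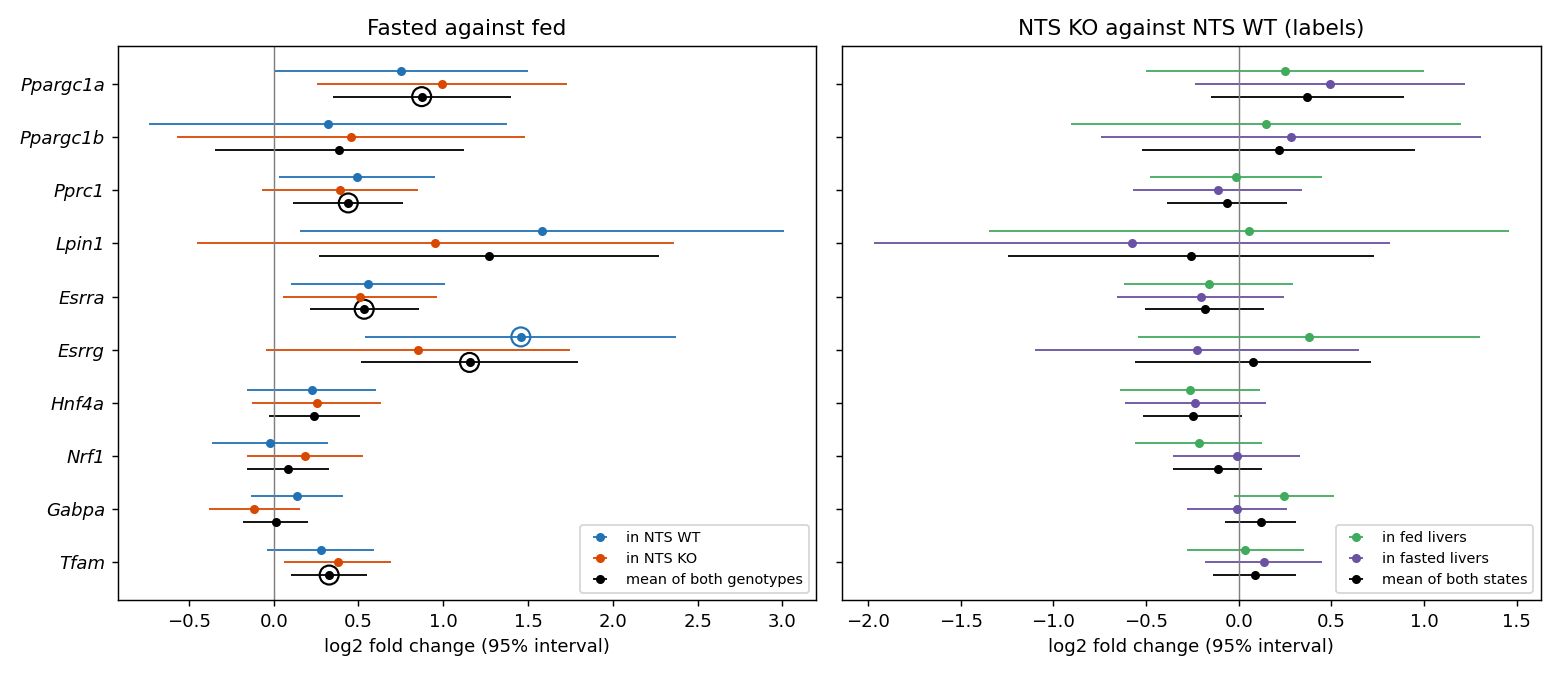
Log2 fold changes of the 10 genes with 95% intervals from edgeR (x axis), on the left for fasted against fed livers and on the right for libraries labelled NTS KO against NTS WT, with ringed points for calls at an adjusted *p* under 0.05. Rings appear on the left for *Ppargc1a*, *Pprc1*, *Esrra*, *Esrrg* and *Tfam* over both genotypes and for *Esrrg* in NTS WT, and on the right every interval includes 0.

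The comparison of genotypes asked whether loss of NTS changed these genes. None of the 10 differed between libraries labelled NTS KO and NTS WT in edgeR's test, in fed livers, in fasted livers or over both states, and 0% of all genes were called in each. At an unadjusted *p* under 0.05 there were also 0 of the 10, against 6.34% of all genes in fed livers, 4.96% in fasted livers and 6.22% over both. DESeq2 called 0 of the 10 as well, and 12, 1 and 15 of all genes. As stated, *Nts* had counts only in libraries labelled NTS KO.

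The intervals show what sizes of difference remain possible. *Ppargc1a* was higher by 0.25 on the log2 scale in fed libraries labelled NTS KO (95% interval -0.50 to 1.00, edgeR adjusted *p* = 0.902) and by 0.49 in fasted ones (interval -0.24 to 1.22, adjusted *p* = 0.917). Without mouse 290 the fasted value was -0.07. *Lpin1* had the widest interval in fasted livers, with a log2 difference of -0.58 (interval -1.97 to 0.82, adjusted *p* = 0.939). *Gabpa* had the narrowest, with -0.01 (interval -0.28 to 0.26). *Tfam* lay at 0.04 in fed livers (interval -0.28 to 0.35) and at 0.14 in fasted livers (interval -0.18 to 0.45).

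*Hnf4a* was the 1 gene of the 10 with genotype groups that did not overlap, and this was in fed livers. There all 3 libraries labelled NTS KO, from 432 to 492 CPM, lay below all 3 labelled NTS WT, from 496 to 673 CPM, with the nearest 2 mice almost level. Such separation, in either direction, was found for 10.7% of all tested genes, and the log2 difference of -0.26 did not pass (95% interval -0.64 to 0.12, edgeR adjusted *p* = 0.816). In fasted livers the difference was -0.23 (adjusted *p* = 0.917) and the groups overlapped.

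The response to fasting was also compared between genotypes as an interaction. None of the 10 genes passed in edgeR (0% of all genes did), 0 of the 10 had an unadjusted *p* under 0.05 against 4.8% of all genes, and DESeq2 called 0 of the 10 and 2 of all genes. The interaction of *Esrrg* was -0.61 on the log2 scale (95% interval -1.88 to 0.67, adjusted *p* = 0.910) and that of *Lpin1* -0.63 (interval -2.61 to 1.34, adjusted *p* = 0.943), so that the smaller fasting differences of both in NTS KO livers lay within the error. For *Ppargc1a* the interaction was 0.24 (interval -0.80 to 1.29), and without mouse 290 it was -0.32. *Esrra* had one near 0, at -0.04 (interval -0.68 to 0.60).

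Divided by the length of the canonical transcript, the levels of the 10 genes spanned more than 2 orders of magnitude. *Hnf4a* led with 127 ± 24.2 CPM per kb (SD, n = 12 mice). *Tfam* (11.3 ± 1.87), *Lpin1* (10.9 ± 7.87), *Esrra* (9.87 ± 2.68) and *Gabpa* (9.43 ± 0.973) followed, with ranges that overlapped. *Nrf1* stood below most of them with 4.50 ± 0.554 CPM per kb. The PGC1 coactivators were low, *Pprc1* at 1.89 ± 0.465, *Ppargc1a* at 1.54 ± 0.820 and *Ppargc1b* (ENSMUSG00000033871, chromosome 18, 61298136 to 61400431) at 0.479 ± 0.209 CPM per kb. *Esrrg* lay among them with 1.10 ± 0.510, so that ERRα transcripts exceeded ERRγ transcripts in every liver on this scale, from 6.09 to 14.4 against 0.221 to 1.89 CPM per kb. Neighbours in this order among *Pprc1*, *Ppargc1a*, *Esrrg* and *Ppargc1b* overlapped. Over the 12 mice the CV was 10.3% for *Gabpa* and 12.3% for *Nrf1* and 53.3% for *Ppargc1a*.

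**Figure D3:**
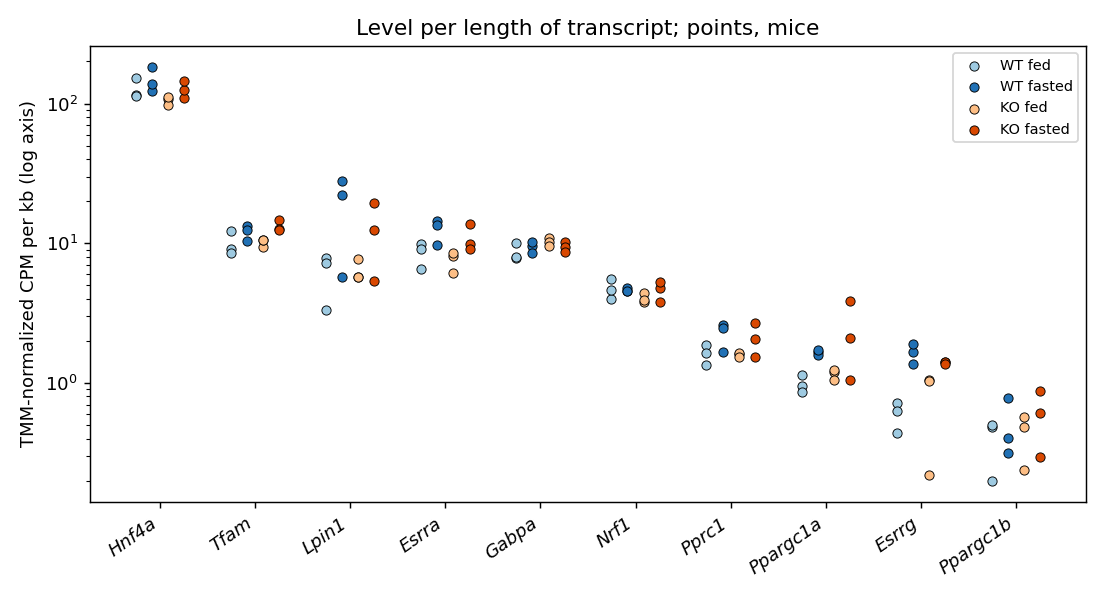
TMM-normalized CPM per kb of canonical transcript (y axis, log scale) for the 10 genes ordered by mean level (x axis), with a point per mouse coloured by group. *Hnf4a* lies above all others in every mouse, at 98.2 to 184 CPM per kb, and *Ppargc1b* has the lowest mean.

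Genes known to work with these factors were compared in the same fit, and their counts stand against the 16% of all genes that rose and 16.8% that fell. These lists too were chosen with earlier results of these data known. Of 29 tested partners and regulators of the coactivators, 4 rose and 2 fell with fasting over both genotypes, with a median log2 fold change of 0.11. *Ppara*, the fatty acid receptor that PGC1α coactivates, went from 56.5 ± 12.2 (SD, n = 3) to 105 ± 8.29 CPM in NTS WT and from 58.2 ± 19.6 to 88.3 ± 6.98 CPM in NTS KO livers (log2 0.75 over both, edgeR adjusted *p* = 0.0021). Within genotypes *Ppara* passed in NTS WT (adjusted *p* = 0.0119) and not in NTS KO livers (0.0687). *Ppard*, its relative, fell from 25.0 ± 8.34 to 6.53 ± 1.14 and from 32.7 ± 2.00 to 5.14 ± 0.579 CPM (log2 -2.30, adjusted *p* = 4.2e-07). *Mybbp1a*, a repressor that binds PGC1α, rose by 0.63 on the log2 scale. The other calls were *Prkag1* (0.27), a subunit of AMPK, *Crtc2* (0.32), the CREB coactivator, and *Rnf34* (-0.31), a ubiquitin ligase of PGC1α. *Crtc2* and *Rnf34* were named after their values were seen. Without mouse 303 the count was 3 in place of 6. *Creb1* and *Sirt1*, a deacetylase of PGC1α, lay at -0.02 and 0.02 (adjusted *p* = 0.912 and 0.882).

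Among 8 tested relatives of the 10 genes, 2 rose over both genotypes and 0 fell, with a median of 0.19. *Tfb2m*, the partner of TFAM in mitochondrial transcription, rose by 0.46 (edgeR adjusted *p* = 6.3e-04) from 31.6 ± 2.91 to 44.1 ± 3.02 CPM in NTS WT (SD, n = 3) and from 31.5 ± 0.735 to 42.8 ± 3.74 CPM in NTS KO livers. *Lpin2*, a lipin prominent in liver, rose by 0.94 (adjusted *p* = 0.0055). *Gabpb1*, which completes the GABP complex with GABPA, lay at -0.07 (adjusted *p* = 0.609).

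Of 20 genes that transcribe or replicate the mitochondrial DNA, 3 rose and 3 fell over both genotypes, with a median of 0.00. These counts lay near the shares of all genes and are no result about the group. Those that rose were *Lrpprc* (0.40), which stabilizes mitochondrial transcripts, *Polg2* (0.41), the accessory subunit of the mitochondrial DNA polymerase, and *Polrmt* (0.28), the mitochondrial RNA polymerase. *Primpol* (-1.24), *Mgme1* (-0.73) and *Top1mt* (-0.37), a primase, a nuclease and a topoisomerase of mitochondrial DNA, fell. *Polg2* and *Polrmt* were named after their values were seen. Without mouse 254 or without mouse 282 this count was 3 in place of 6.

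Of the 13 protein genes carried by the mitochondrial DNA itself, 3 rose and 0 fell, with a median of 0.36. The 3 rises lay near the 16% of all genes that rose and are no result about the group. The 3 encode subunits of complex I, as do *mt-Nd1*, *mt-Nd3*, *mt-Nd4* and *mt-Nd4l*, which were not called (edgeR adjusted *p* = 0.250, 0.350, 0.131 and 0.114). *mt-Nd5* went from 1764 ± 443 to 3049 ± 594 CPM in NTS WT and from 1907 ± 476 to 3763 ± 1188 CPM in NTS KO livers (SD, n = 3; log2 0.89 over both, edgeR adjusted *p* = 0.0025). *mt-Nd6* rose by 0.94 and *mt-Nd2* by 0.64.

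Nuclear genes known as targets of PGC1 coactivators and ERRs had the largest median of the 7 lists. Of 21, 11 rose and 1 fell over both genotypes with a median of 0.79, and 9 rose in NTS WT and 10 in NTS KO livers. *Acadm* (1.42) and *Acadl* (1.03), acyl-CoA dehydrogenases, and *Cpt1a* (1.60), which admits fatty acids to mitochondria, were among those with the smallest *p* values. *Cpt1a* went from 262 ± 95.4 to 757 ± 111 CPM in NTS WT and from 260 ± 55.5 to 827 ± 105 CPM in NTS KO livers (SD, n = 3). The gluconeogenic genes *Pck1* (1.25, edgeR adjusted *p* = 0.0201) and *G6pc* (1.15, adjusted *p* = 0.0020) rose too, and were named after their values were seen. Within genotypes *Pck1* passed in neither and *G6pc* in NTS KO livers only.

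Protein import and mitochondrial dynamics had 14 of 18 genes higher and 0 lower, with a median of 0.40. *Tomm20*, a receptor of the outer membrane, rose by 0.91, *Phb2*, a prohibitin, by 0.64, *Tomm40*, the import pore, by 0.60 and *Timm23*, a channel of the inner membrane, by 0.58. Of 13 other transcription factors of hepatocytes, 4 rose and 0 fell, with a median of 0.15, namely *Nr1i3* (1.08), *Cebpb* (1.14), *Nr1h4* (0.45) and *Prox1* (0.43). Within genotypes, 4 of the 13 rose in NTS WT and 1 in NTS KO livers, against 8.91% and 7.7% of all genes. *Nr1i3* lay at 0.49 in NTS WT and 1.67 in NTS KO livers, and *Prox1* at 0.73 and 0.13. Neither interaction passed in edgeR (adjusted *p* = 0.888 and 0.897). None of these 7 lists had a gene called between genotypes or in the interaction.

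**Figure D4:**
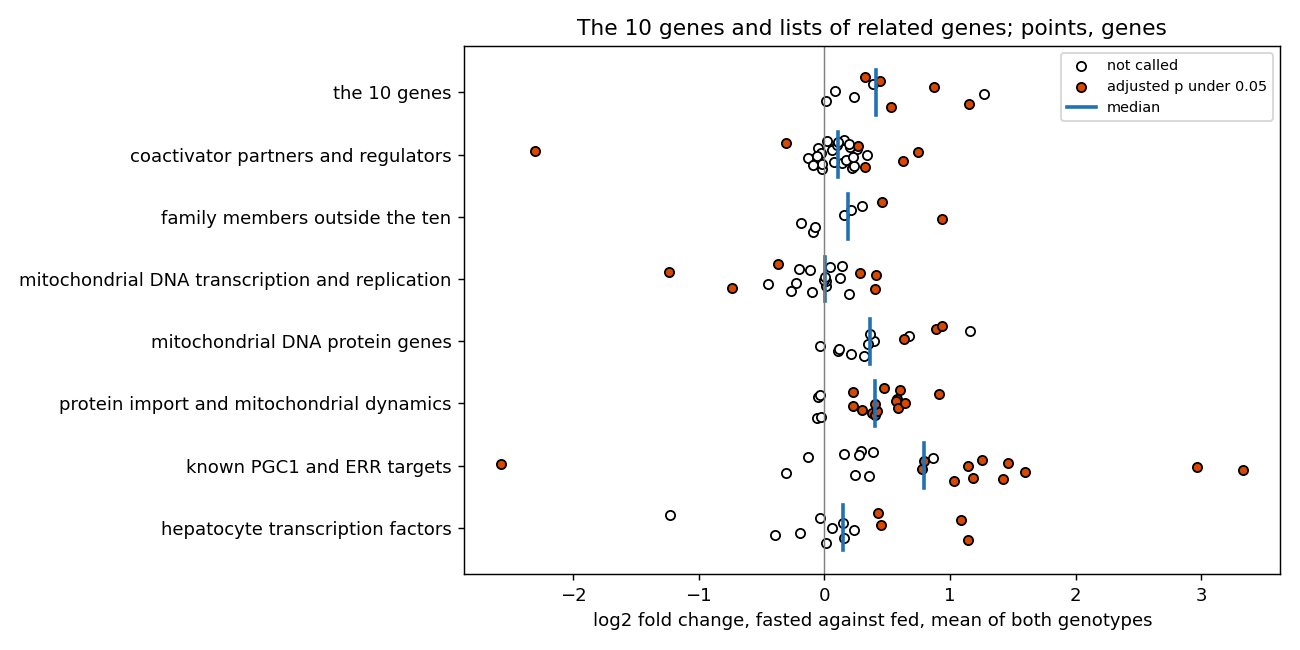
Log2 fold change of fasted against fed livers over both genotypes (x axis) for the 10 genes and 7 lists of related genes (y axis), with a point per gene, filled at an adjusted *p* under 0.05, and a line at the median. The known targets reach further from 0 (median 0.79) than the 10 genes (median 0.41), and the genes of mitochondrial DNA transcription and replication lie on both sides of 0.

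Markers of other liver cells moved with feeding state too, and in bulk tissue fewer cells of a type and less RNA per cell cannot be told apart. The 6 cholangiocyte markers summed to between 34.0 and 49.9 CPM in fed and 13.8 and 26.2 in fasted NTS WT livers, and to between 33.5 and 35.7 in fed and 15.1 and 29.7 in fasted NTS KO livers. The 7 markers of sinusoidal endothelium summed to between 163 and 236 CPM in fed and 147 and 152 in fasted NTS WT livers, and to between 193 and 214 and between 142 and 172 in NTS KO livers. Both sums were lower in every fasted liver than in any fed liver of the same genotype. Over both genotypes, 1 of the 7 endothelial markers rose and 4 fell at an adjusted *p* under 0.05 in edgeR. Of 4 tested cholangiocyte markers 0 rose and 1 fell, against 16% and 16.8% of all genes. Among the 6 cholangiocyte markers, 3 stayed below 1 CPM in every liver. The fitted fasting differences of *Sox9* and *Epcam* had unlike signs in the genotypes, while those of *Spp1* and *Krt19* were below 0 in both. The 7 stellate cell markers, between 205 and 275 and between 201 and 218 CPM in NTS WT and between 218 and 267 and between 177 and 202 CPM in NTS KO livers, overlapped in NTS WT only. Of these markers 1 rose and 4 fell over both genotypes.

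Markers of immune cells overlapped more. The 7 Kupffer cell markers summed to between 485 and 556 CPM in fed and 246 and 423 in fasted NTS WT livers, and to between 300 and 426 and between 307 and 482 in NTS KO livers. The 8 lymphocyte markers summed to between 17.9 and 18.7 and between 11.8 and 13.0 CPM in NTS WT and to between 15.5 and 18.0 and between 12.1 and 24.9 CPM in NTS KO livers. Both sums were thus lower in fasted NTS WT livers, whereas the NTS KO groups overlapped. In NTS WT 1 Kupffer cell marker and 0 lymphocyte markers were called lower, against 9.19% of all genes. In either list 0 were called higher, against 8.91%. The part of any of these cells in the values of the 10 genes was not tested.

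PGC1α and ERRγ are abundant in muscle and brown fat, so markers of these tissues were checked. Of 8 muscle markers 5 were at 0 in all 12 livers (*Acta1*, *Myh4*, *Myl1*, *Myh6* and *Myh7*), and the sum did not exceed 0.0474 CPM in any liver. Of 6 adipocyte markers *Lep* and *Ucp1* were at 0 in all livers and 5 stayed below 1 CPM. The sum of the adipocyte list was between 0.147 and 1.24 CPM in fed and 39.9 and 71.0 in fasted NTS WT livers and between 0.362 and 0.423 and between 43.4 and 70.5 CPM in NTS KO livers, carried by *Cidec*, a lipid droplet gene that hepatocytes also express.

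For each of the 5 genes that rose, the 3 genes with the most similar levels over the 12 mice were found by Pearson's *r* of log2 CPM, given as a description because the mice share feeding states. For *Ppargc1a* they were *Fam134b* (*r* = 0.88), *Sptan1* (0.88) and *Ipo4* (0.86), with *r* between 0.67 and 0.91 within the 6 fed and the 6 fasted livers. For *Esrra* they were *Nek6* (0.95), *Ufsp1* (0.92) and *Tatdn2* (0.92). For *Esrrg* they were *Trim2* (0.95), *Nckap1* (0.95) and *Entpd5* (0.94), the last with an *r* of 0.63 within the fasted livers. For *Tfam* they were *Smim7* (0.98), *Isoc2a* (0.96) and *Pgk1* (0.94). For *Pprc1* they were *Phrf1* (0.96), an unnamed gene, ENSMUSG00000108815 (0.94), and *Taf2* (0.91). The unnamed gene did not vary among the fed livers, so no *r* could be had there. None of the 10 genes was among the 3 closest to another.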

How the data were processed

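Liver RNA of 12 mice was reverse-transcribed and sequenced (3 mice in each of 4 groups). The authors deposited expected counts per gene, estimates of reads that need not be whole (7.94% of values were not) and are not scaled between mice. The submitters' processing notes name Trimmomatic, RSEM and GRCm38. Versions, aligner and annotation are not given in the sources used here. Columns of other samples numbered 0. Strand was not stated, so reads of overlapping genes cannot be told apart.

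Expected counts were rounded, and low genes were dropped with filterByExpr of edgeR 4.0.16 (R 4.3.3). After TMM scaling, robust quasi-likelihood models with a term for each group were fitted to all mice at once (biological coefficient of variation 0.202). Contrasts were fasted against fed in each genotype and averaged, NTS KO against NTS WT in each state and averaged, and the interaction. *P* values were adjusted by Benjamini-Hochberg across 13812 genes, with 0.05 as the threshold. Log2 CPM used a prior count of 2. Lengths came from the canonical transcript of GENCODE vM39, matched by identifier for 99.2% of genes. Simulated data served to check the test.

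Alternatives were RLE and upper-quartile scaling, DESeq2 1.42.0, no filter, at least 10 counts in every mouse, no mitochondrially encoded genes, removal of the trend with transcript length, an adjusted *p* under 0.10, only the 6 mice compared, and leaving out each mouse. The members and lists were chosen with earlier results of these data known. Named list genes were up to 4 with the smallest *p* among those called with fasting, and up to 2 that were not called. Some list genes are counted but not reported here by name. Promoter windows are those of RefSeq on GRCm38.p6.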

Additional observations from a re-analysis of the deposited data

How the results depend on the processing

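The rises of *Ppargc1a*, *Esrra* and *Esrrg* over both genotypes kept their direction and their call under every alternative. No gene of the 10 was called between genotypes or in the interaction under any of them. Alternatives changed the calls of *Pprc1*, *Tfam* and *Lpin1* over both genotypes, and those within a genotype. The cause was not tested. *Ppargc1b* and *Esrrg* had the fewest counts, and the part of depth in their intervals was not tested. No paired analysis was possible because every mouse has a number of its own and the labels give no pairs.

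In NTS WT livers the count of genes called with fasting went from 1 to 2 with an adjusted *p* under 0.10 or with only the 6 mice compared, to 0 with no count filter, and to between 0 (without mouse 254, 257 or 282) and 2 (without mouse 265, 322, 284 or 290) with 1 mouse left out. In NTS KO livers it went from 0 to 2 with an adjusted *p* under 0.10, to 1 in DESeq2, and to between 0 and 1 (without mouse 323 or 284) with 1 mouse left out. Over both genotypes it went from 5 to 6 with an adjusted *p* under 0.10 or in DESeq2, to 4 with upper-quartile normalization, and to between 3 (without mouse 254, 282 or 277) and 5 with 1 mouse left out.

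The sign changed only for differences that were not called. *Nrf1* lay at 0.046 on the log2 scale for fasting in NTS WT with the length trend removed, and for genotype in fasted livers at 1.81e-04 (upper quartile) and 0.0014 (at least 10 counts). *Gabpa* lay at -0.021 for fasting over both genotypes (upper quartile), and for genotype in fasted livers at 0.0041 (upper quartile), 0.0062 (at least 10 counts) and 0.048 (length trend). *Lpin1* lay at -0.011 for genotype in fed livers (length trend).

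With 1 mouse left out, the log2 difference with fasting in NTS WT lay between -0.11 and 0.57 for *Ppargc1b* and between -0.13 and 0.12 for *Nrf1*, and over both genotypes between -0.014 and 0.076 for *Gabpa*. The genotype difference in fed livers lay between -0.18 and 0.43 for *Ppargc1b*, -0.14 and 0.10 for *Pprc1*, -0.24 and 0.27 for *Lpin1*, and -0.065 and 0.21 for *Tfam*. In fasted livers it lay between -0.069 (without mouse 290) and 0.83 for *Ppargc1a*, -0.082 and 0.72 for *Ppargc1b*, -0.33 and 0.055 for *Pprc1*, -0.12 and 0.11 for *Nrf1*, and -0.077 and 0.061 for *Gabpa*. Over both states it lay between -0.17 and 0.021 for *Pprc1* and between -0.067 and 0.29 for *Esrrg*. The interaction lay between -0.32 and 0.58 for *Ppargc1a*, -0.23 and 0.57 for *Ppargc1b*, -0.32 and 0.068 for *Pprc1*, -0.26 and 0.13 for *Esrra*, -0.13 and 0.21 for *Hnf4a*, and -0.072 and 0.20 for *Tfam*.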
